A study of Mus musculus with 6 samples.

Results

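Neutrophils carry their antimicrobial proteins in granules that form in a fixed order, and 10 genes for such proteins were followed here among 23453 gene rows of the count table. The 10 genes were chosen by symbol in 3 granule classes: azurophil (Elane, Mpo, Prtn3 and Ctsg, 4 genes), specific (Ltf, Camp, Ngp and Lcn2, 4 genes) and gelatinase (Mmp8 and Mmp9, 2 genes). All 10 symbols were found and all 10 passed the filter on low counts. RNA was sequenced from splenocyte cultures of wild-type OT1 mice on the C57BL/6 strain, a line in which transgenic T cell receptors recognise an OVA peptide. Every culture was given the OVA peptide for 48 h and then medium named FCM (3 libraries titled Vehicle) or TCM (3 libraries titled TCM) for 8 h. The labels expand neither FCM nor TCM, state the cell type as cytotoxic T lymphocytes, and name no sorting step. They do not say whether replicates were separate mice or cultures, so the p-values speak to variation among the 6 libraries alone, which could be technical.

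Azurophil granules are filled first, at the promyelocyte stage in the bone marrow, with myeloperoxidase and serine proteases. Specific granules follow at the myelocyte stage with lactoferrin, cathelicidin and lipocalin-2, and gelatinase granules come last, in band cells. Transcripts of the earlier classes are therefore known as marks of immature neutrophils, and in the spleen they are found in neutrophils and their precursors rather than in T cells, although Lcn2 and Mmp9 can also be induced in other cells.

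A limit on the direction bears on every value. In the deposited normalized table, each of the 6 columns equals a fixed factor times the count column of the same replicate number but the other group title, so the tables disagree on which 3 libraries received TCM. Directions below follow the titles of the count table, and every one of them turns around under the titles of the normalized table. Which table is right was not settled. Total counts ran from 17166687 to 25789381. After TMM scaling, 1 count was worth from 0.0374 CPM (counts scaled for library size) in Vehicle replicate 2 to 0.0655 CPM in TCM replicate 2. Replicate 1 of each group stood apart from replicates 2 and 3 (chi-square per gene 62.0 to 110 in pairs with replicate 1, 5.08 and 7.48 in the other pairs).

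In GENCODE M21 on GRCm38 all 10 genes are protein-coding and none overlaps another gene of the count table. Prtn3 (chromosome 10, 79874476 to 79883174) and Elane (chromosome 10, 79886247 to 79888215) are neighbours on the plus strand, 3072 bases apart. Mpo lies on chromosome 11 (87793581 to 87804413) and Ctsg on chromosome 14 (56099881 to 56102574). Camp (109847379 to 109849617), Ngp (110419747 to 110423012) and Ltf (111019271 to 111042767) lie in that order on chromosome 9, with gaps of 570129 and 596258 bases, and Mmp8 is far from them on the same chromosome (7558456 to 7568485). Lcn2 (32384633 to 32388252) and Mmp9 (164940780 to 164955850) are both on chromosome 2. How reads from near-identical copies were counted is not given in the sources used here. The sequences of the related genes Elane and Prtn3 were not compared, so whether they share reads was not tested.

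Promoter windows of 250 bases before the RefSeq start site (GRCm38.p6) were found for 9 of the 10 genes, all but Mmp9. Below are the windows of Ltf, Ngp and Elane, the 3 genes with the largest falls, and of Mmp8, the gene that did not pass the test. They are printed on the strand of the gene up to the first base that either annotation counts as transcribed, at chr9:111019042-111019270, chr9:110419558-110419746, chr10:79886062-79886246 and chr9:7558179-7558428 in that order, all on the plus strand, with matches to TTNNGNAA on either strand, a core of the C/EBP recognition sequence, in capitals.
Ltf: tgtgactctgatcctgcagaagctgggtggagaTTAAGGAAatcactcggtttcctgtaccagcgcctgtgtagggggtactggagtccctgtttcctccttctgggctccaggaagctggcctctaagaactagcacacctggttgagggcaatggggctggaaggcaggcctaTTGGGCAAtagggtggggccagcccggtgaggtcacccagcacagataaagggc
Ngp: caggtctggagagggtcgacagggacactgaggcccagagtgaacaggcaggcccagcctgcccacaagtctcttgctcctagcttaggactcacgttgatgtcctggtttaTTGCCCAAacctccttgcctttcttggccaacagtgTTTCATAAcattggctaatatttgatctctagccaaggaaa
Elane: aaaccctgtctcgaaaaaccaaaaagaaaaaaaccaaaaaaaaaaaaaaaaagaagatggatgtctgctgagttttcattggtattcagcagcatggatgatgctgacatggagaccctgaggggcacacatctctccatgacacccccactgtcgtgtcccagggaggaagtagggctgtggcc
Mmp8: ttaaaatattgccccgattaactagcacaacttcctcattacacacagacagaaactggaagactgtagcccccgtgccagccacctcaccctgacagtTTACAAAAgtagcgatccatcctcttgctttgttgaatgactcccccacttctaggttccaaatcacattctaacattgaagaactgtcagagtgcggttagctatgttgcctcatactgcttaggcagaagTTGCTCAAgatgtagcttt
C/EBP factors, C/EBP epsilon above all for the specific class, are known drivers of granule genes. The printed stretches of Ltf, Ngp and Mmp8 held 2 matches each and that of Elane held 0. Over the whole windows, TTNNGNAA was found in 4 of 9 promoters (Ltf, Ngp, Lcn2 and Mmp8) and in 36.9% of 32841 mouse promoter windows of the same length. Several of the 9 windows run into the gene as GENCODE draws it. Those of Lcn2, with its match, and Prtn3 do so wholly, that of Mpo with 203 of 250 bases and that of Camp with 161. The full palindrome TTGCGCAA, which is itself a match to TTNNGNAA, was in 0 of the 9 windows and in 0.164% of all windows. The ETS core GGAA, which a TTNNGNAA match can contain, was in 9 of 9 and 93.5%, the GATA motif AGATAA in 1 of 9 (Ltf) and 9.99%, and the E-box CACGTG in 0 of 9 and 6.02%. These matches describe letters in the windows and do not show binding.

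The comparison of the TCM with the Vehicle libraries asked how the medium changed the stimulated cultures. By the count-table titles, transcripts of 9 of the 10 granule genes fell in TCM and those of Mmp8 did not pass the test (edgeR's quasi-likelihood test, Benjamini-Hochberg adjusted p under 0.05 over 12423 genes). Of all tested genes, 30.0% were called lower by the same rule and 28.8% higher. The size of the fall ran from 152-fold for Ltf to 1.70-fold for Lcn2, and sizes differed within each class. Falls of at least 2-fold were called for 8 of the 10 genes, against 10.5% of all genes, and falls of at least 16-fold for 4 of the 10, against 0.443% of all genes. The Vehicle libraries were all above the TCM libraries for 9 of the 10 genes, which held for 33.6% of all genes. The median log2 change of the 10 genes was -3.38, and that of all genes tested was -0.018.

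**Figure D1:**
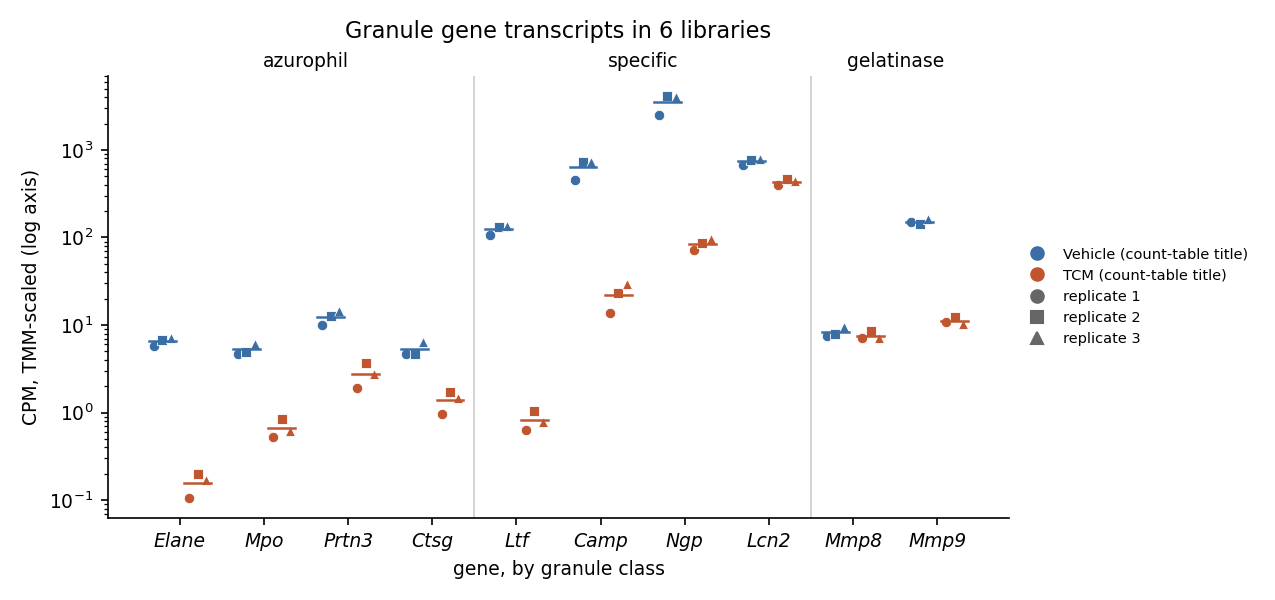
CPM (TMM-scaled, log axis) of the 10 granule genes in each of the 6 libraries, grouped by granule class on the x axis. Points are libraries, their shapes replicate numbers, and bars the group means. The Vehicle and TCM libraries are apart in 9 genes and overlap in Mmp8.

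Among the azurophil genes, Elane encodes neutrophil elastase, a serine protease that cleaves matrix and bacterial proteins. Its counts were 127, 182 and 182 in Vehicle replicates 1 to 3 and 2, 3 and 3 in TCM replicates 1 to 3. All Vehicle libraries were thus far above all TCM libraries, where the transcript was close to the limit of detection. The TMM-scaled means were 6.54 ± 0.687 CPM (SD, n = 3) and 0.157 ± 0.0461 CPM. On the log2 scale the transcript changed by -5.35 ± 0.27 (SE; edgeR adjusted p = 9.92e-07). With so few counts in TCM, the ratio of the pooled counts was 42.7 with a 95% exact interval of 21.5 to 99.4, which covers counting error only.

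Prtn3 encodes proteinase 3, the elastase-related protease of the adjacent gene. Its counts were 218, 341 and 372 in Vehicle and 36, 56 and 49 in TCM, and the groups did not overlap. In CPM the Vehicle mean was 12.4 ± 2.29 and the TCM mean 2.78 ± 0.876 (SD, n = 3). Prtn3 changed by -2.17 ± 0.23 on the log2 scale (SE; edgeR adjusted p = 8.07e-05), a 4.45-fold fall where its neighbour Elane fell 41.6-fold. Within each library, Prtn3 per kilobase of exon was 1.07 ± 0.0930 times Elane in Vehicle and 10.04 ± 0.683 times Elane in TCM (SD, n = 3).

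Mpo encodes myeloperoxidase, which makes hypochlorous acid from hydrogen peroxide. Its counts were 104, 132 and 158 in Vehicle and 10, 13 and 11 in TCM. All 3 TCM libraries were below the Vehicle libraries, at 0.667 ± 0.165 CPM against 5.26 ± 0.757 CPM (SD, n = 3). This was a log2 change of -2.99 ± 0.23 (SE; edgeR adjusted p = 1.18e-05). Ctsg encodes cathepsin G, a chymotrypsin-like protease of the same granules. Its counts were 104, 125 and 165 in Vehicle and 18, 26 and 26 in TCM, with no overlap between the groups. Ctsg changed by -1.95 ± 0.24 on the log2 scale (SE; edgeR adjusted p = 0.000171), from 5.26 ± 0.982 to 1.37 ± 0.380 CPM (SD, n = 3), the smallest fall of the 4 azurophil genes. The ratio of Prtn3 to Ctsg per kilobase was 1.41 ± 0.196 in Vehicle and 1.2 ± 0.0806 in TCM, and its libraries overlapped between the groups. Ctsg is also known from mast cells, and all 5 basophil and mast cell markers fell in the same libraries, beside 30.0% of all genes. The summed level of these markers was 73.5 to 104 CPM in Vehicle and 16.5 to 26.2 CPM in TCM. Their part in the change of Ctsg was not tested.

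Among the specific granule genes, Ltf encodes lactoferrin, an iron-binding antibacterial protein. Its counts were 2379, 3565 and 3469 in Vehicle and 12, 16 and 14 in TCM. The lowest Vehicle library, at 108 CPM, was far above the highest TCM library, at 1.05 CPM, and the means were 125 ± 15.0 CPM and 0.824 ± 0.207 CPM (SD, n = 3). The log2 change was -7.26 ± 0.21 (SE; edgeR adjusted p = 3.35e-07), and 0.0161% of all tested genes had a larger fall. The pooled counts gave a ratio of 156 with a 95% exact interval of 115 to 216 for counting error.

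Ngp encodes neutrophilic granule protein, a relative of the cathelicidins, and it was the most abundant of the 10 transcripts per kilobase in the Vehicle libraries. Its counts were 54941, 110959 and 103555 in Vehicle and 1355, 1308 and 1719 in TCM. Vehicle replicate 1 was the lowest Vehicle library at 2493 CPM, against 4152 and 4015 CPM in replicates 2 and 3, and still far above the highest TCM library at 96.6 CPM. Ngp changed by -5.39 ± 0.29 on the log2 scale (SE; edgeR adjusted p = 1.44e-06).

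Camp encodes cathelicidin, the precursor of an antimicrobial peptide. Its counts were 10114, 19595 and 18780 in Vehicle and 257, 354 and 521 in TCM. Replicate 1 was again lowest in both groups, at 459 CPM in Vehicle and 13.7 CPM in TCM, and the groups did not overlap. Camp changed by -4.86 ± 0.33 on the log2 scale (SE; edgeR adjusted p = 5.67e-06). The ratio of Ngp to Camp per kilobase moved less than their levels, from 3.43 ± 0.0725 in Vehicle to 2.54 ± 0.647 in TCM (SD, n = 3), with TCM replicate 1 at 3.27 next to the lowest Vehicle value of 3.37.

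Lcn2 encodes lipocalin-2, which withholds iron from bacteria by binding their siderophores. Its counts were 14875, 20287 and 20512 in Vehicle and 7420, 7181 and 7890 in TCM. The groups did not overlap, at 743 ± 61.7 and 436 ± 38.2 CPM (SD, n = 3), but they were far closer than for the other specific granule genes. The log2 change was -0.77 ± 0.16 (SE; edgeR adjusted p = 0.00286), and 16.02% of all tested genes fell further. Lcn2 per kilobase was 7.83 ± 0.372 times Ltf in Vehicle and 715 ± 114 times Ltf in TCM. Ngp was 10.2 ± 1.99 times Lcn2 in Vehicle and 0.417 ± 0.0440 times Lcn2 in TCM, which reversed their order.

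The gelatinase granule genes encode matrix metalloproteinases, MMP9 (gelatinase B) and MMP8 (neutrophil collagenase). Counts of Mmp9 were 3337, 3852 and 4142 in Vehicle and 204, 189 and 185 in TCM, with no overlap. The log2 change was -3.76 ± 0.14 (SE; edgeR adjusted p = 3.68e-07), from 152 ± 8.26 to 11.2 ± 1.04 CPM (SD, n = 3). Counts of Mmp8 were 166, 209 and 246 in Vehicle and 134, 129 and 126 in TCM. In CPM the groups overlapped, at 7.53, 7.82 and 9.54 in Vehicle and 7.13, 8.45 and 7.08 in TCM. The log2 change of Mmp8 was -0.14 ± 0.15 (SE; edgeR adjusted p = 0.432) with a 95% interval of -0.47 to 0.19, so that a fall of the size seen in Mmp9 lies far outside the interval. Within a library, Mmp9 per kilobase was 12.6 ± 1.12 times Mmp8 in Vehicle and 1.02 ± 0.0221 times Mmp8 in TCM, a difference of -3.63 on the log2 scale.

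**Figure D2:**
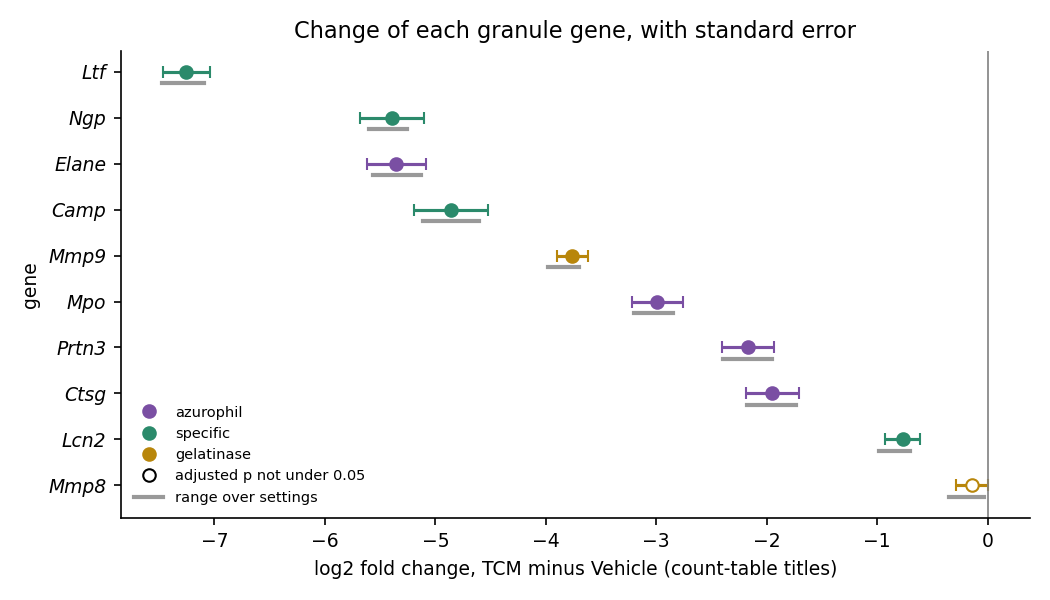
Log2 fold change of each granule gene, TCM minus Vehicle by the count-table titles, with its standard error (bars) and the range over the alternative settings that keep those titles (grey lines). Filled points passed an adjusted p of 0.05. Each of the 3 classes spans a wide range, from -7.26 for Ltf to -0.77 for Lcn2 among the specific genes.

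As classes, the 4 azurophil genes had a median log2 change of -2.58 (-5.35 to -1.95), the 4 specific genes -5.12 (-7.26 to -0.77) and the 2 gelatinase genes -1.95 (-3.76 to -0.14), beside -0.018 for all genes tested. These ranges overlap, and no test of the classes against each other was made. In the Vehicle libraries, levels per kilobase of exon were in the order Ngp (2908 ± 753 CPM per kb, SD, n = 3), Camp (844 ± 207), Lcn2 (283 ± 23.5), Mmp9 (43.0 ± 2.33), Ltf (36.3 ± 4.35), Prtn3, Elane, Ctsg, Mmp8 and Mpo (1.54 ± 0.221). Only Prtn3 and Elane, and Elane and Ctsg, overlapped with their neighbour in this order. In the TCM libraries Lcn2 led with 166 ± 14.6 CPM per kb, ahead of Ngp (69.4 ± 10.04) and Camp (29.1 ± 10.4), and Ltf, Mpo and Elane were last at 0.239 ± 0.0600, 0.195 ± 0.0482 and 0.160 ± 0.0468 with overlapping libraries. The 10 genes together took 0.461% to 0.617% of the counts of a Vehicle library and 0.0497% to 0.0550% of those of a TCM library. The specific class held 98.3% ± 0.395 of their summed level per kilobase in Vehicle and 96.5% ± 0.366 in TCM, while the azurophil class held 0.505% ± 0.0792 and 1.18% ± 0.240 (SD, n = 3).

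Other markers of neutrophils moved in the same libraries. Of 8 neutrophil markers outside the 10 genes, 7 fell and Clec4d rose, beside 30.0% lower and 28.8% higher over all genes. The median log2 change of the 8 was -2.06, and their summed level was 5051 to 7659 CPM in Vehicle and 1160 to 2243 CPM in TCM. Csf3r, the receptor for the neutrophil growth factor G-CSF, changed by -2.91 ± 0.15 on the log2 scale, the chemokine receptor gene Cxcr2 by -4.78 ± 0.31 and Retnlg by -7.00 ± 0.42 (SE; edgeR adjusted p = 1.17e-06, 4.18e-06 and 2.41e-06). In these bulk libraries fewer neutrophils and less RNA of these genes per neutrophil cannot be told apart. The T cell markers Cd3e, Cd3g, Cd8b1 and Cd2 did not pass, Cd3d rose and Cd8a fell. Their summed level with Cd3d and Cd8a, 558 to 641 CPM in Vehicle and 609 to 719 CPM in TCM, overlapped between the groups. The call of Cd3d was lost without TCM replicate 2 (log2 change 0.67, adjusted p = 0.0619, edgeR). Cd3g (0.32, adjusted p = 0.0609, edgeR) was called higher with DESeq2 size factors, with DESeq2 and with the replicate block. The same held without TCM replicate 1 and without replicate 1 of both groups (0.32 to 0.41 over these settings). For Cd3g the TCM libraries were all above the Vehicle libraries. Transcripts of the labelled cell type were present beside those of neutrophils.

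Set against the summed level of those 8 neutrophil markers in the same library, the granule genes separated into groups. Ltf was 19.1 ± 2.06 CPM per 1000 CPM of the markers in Vehicle and 0.485 ± 0.116 in TCM (SD, n = 3), which is 39.3-fold lower. Elane, Ngp and Camp were lower by 11.1-fold, 10.5-fold and 7.72-fold, Mmp9 by 3.45-fold and Mpo by 2.04-fold, each with no overlap between the groups. The groups overlapped for Prtn3, at 1.87 ± 0.174 and 1.61 ± 0.359, and for Ctsg, at 0.807 ± 0.173 and 0.793 ± 0.128. Lcn2 and Mmp8 were higher in TCM on this scale, by 2.30-fold and 3.61-fold, again with no overlap. S100a8 and S100a9 make up most of the marker sum, so the scale follows those genes, and no test was made on it. They fell 3.13-fold and 5.18-fold, while the other markers ran from a 1.70-fold rise (Clec4d) to a 132-fold fall (Retnlg). The grouping of the granule genes therefore depends on the markers chosen.

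**Figure D3:**
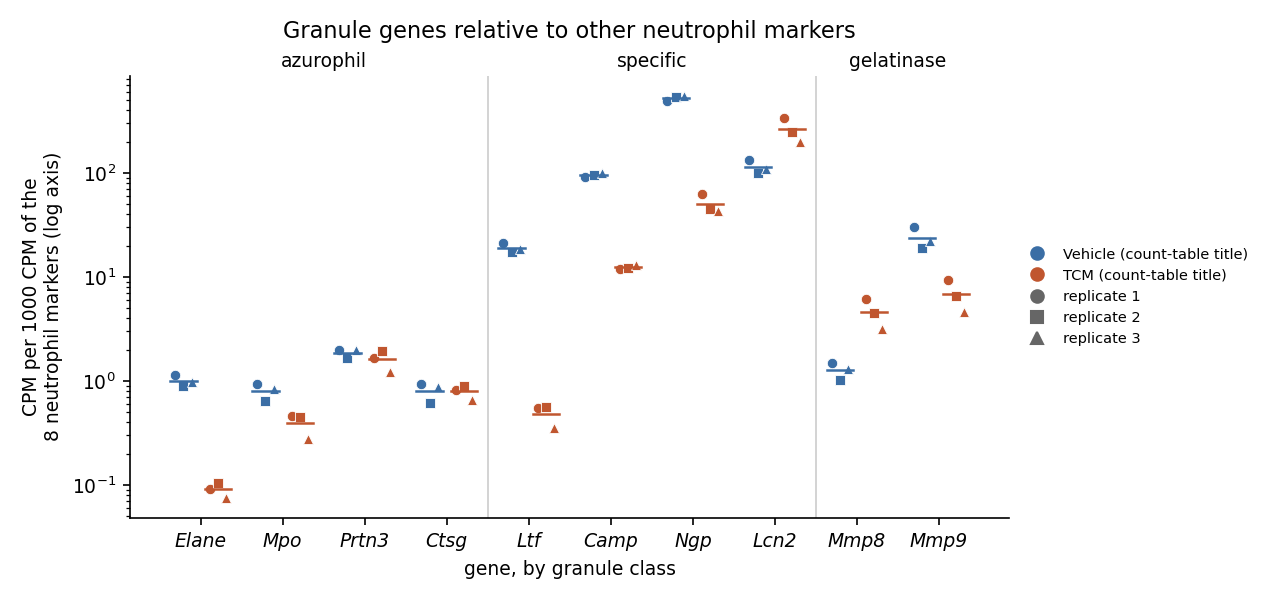
Level of each granule gene per 1000 CPM of the 8 neutrophil markers in the same library (log axis), with points, shapes and bars as in the plot of CPM by library. Ltf, Elane, Ngp and Camp are well below the Vehicle libraries in TCM, Prtn3 and Ctsg overlap, and Lcn2 and Mmp8 are above.

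Further genes of granule cargo and granule membranes mostly fell. Of 20 such genes, Bpi was at 0 in all 6 libraries and Prss57 and Lyz1 were too low to test, while of the 17 tested 12 fell, Ctsd rose and 4 did not pass (median log2 change -1.62). By the same rule 30.0% of all genes tested were called lower and 28.8% higher. Chil1, a chitinase-like protein of specific granules listed as Chi3l1, fell 14.8-fold from 69.6 ± 6.58 to 4.71 ± 0.594 CPM (SD, n = 3). Lyz2, the lysozyme of neutrophils and macrophages, fell 12.7-fold from 414 ± 29.2 to 32.7 ± 2.09 CPM, and Cd177, a surface protein held in specific granules, fell 53.9-fold from 46.3 ± 1.09 to 0.859 ± 0.405 CPM. Their adjusted p-values were 4.15e-07, 4.75e-07 and 4.75e-07 (edgeR). The rise of Ctsd, 0.46 on the log2 scale, was lost with library totals as scaling (0.26, adjusted p = 0.214, edgeR) and without Vehicle replicates 1, 2 or 3 or TCM replicate 2, one at a time (0.37, 0.51, 0.49 and 0.46, adjusted p 0.0552 to 0.0789).

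Of 10 transcription factor genes tied to granule genes, 5 fell, Gfi1 rose and 4 did not pass (median log2 change -0.65). Over all genes tested, 30.0% were called lower and 28.8% higher, with a median of -0.018. Cebpe, which encodes C/EBP epsilon, the factor needed to form specific granules, had 352, 651 and 670 counts in Vehicle and 19, 18 and 27 counts in TCM. The groups did not overlap, and the log2 change was -4.16 ± 0.25 (SE; edgeR adjusted p = 2.61e-06). Klf5 changed by -2.61 ± 0.26 and Myb, a factor of early progenitors, by -1.07 ± 0.12 (adjusted p = 4.97e-05 and 0.000115, edgeR). The others that fell were Cebpd and Spi1, the gene of PU.1, listed as Sfpi1. Spi1 (-0.68, adjusted p = 0.0237, edgeR) lost its call without Vehicle replicate 2 or 3 or TCM replicate 2 (-0.56, -0.59 and -0.74, adjusted p 0.0558 to 0.0860). The rise of Gfi1 (0.70) had an adjusted p = 0.0525 (edgeR, 0.50) with library totals. Cebpa did not pass (-0.62, adjusted p = 0.0788, edgeR) but was called lower with library totals, with no filter and with the replicate block. The same held for Cebpa without Vehicle replicate 1 and without replicate 1 of both groups (-0.85 to -0.61 over these settings). Among markers of neutrophil precursors, 4 of 6 fell, beside 30.0% of all genes. These were Ms4a3 (log2 change -4.41 ± 0.33), Fcnb (-3.27 ± 0.38), Cebpe and Kit, while Cd34 and Flt3 did not pass. The summed level of the 6 was 35.7 to 50.2 CPM in Vehicle and 7.99 to 8.94 CPM in TCM.

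Among genes for the processing, storage and inhibition of granule proteases, 6 of 16 tested rose, 3 fell and 7 did not pass. Calls were thus about as common as over all genes, of which 28.8% were called higher and 30.0% lower. Their median log2 change was 0.16 with TMM but -0.056 with library totals. The genes that fell were Serpina3g, a serine protease inhibitor of leukocytes (-2.22 ± 0.13, SE), Serpinb1a, an inhibitor of elastase, cathepsin G and proteinase 3 (-0.80 ± 0.23), and Ctsc, the peptidase that activates those proteases (-0.79 ± 0.15). The genes that rose, named in full after their values were seen, were the elastase inhibitor gene Slpi (1.96 ± 0.25), the MMP inhibitor gene Timp1 (1.96 ± 0.20), Reck, a membrane inhibitor of MMPs (1.07 ± 0.16), Srgn, the proteoglycan that packs granule proteins (0.98 ± 0.27), and the stefin genes Stfa2 (0.80 ± 0.23) and Stfa3 (3.46 ± 0.38), which encode cysteine protease inhibitors. Adjusted p-values of these 9 genes lay between 2.31e-06 and 0.0144 (edgeR). Srgn lost its call without TCM replicate 2 (0.91, adjusted p = 0.0576, edgeR) and Stfa2 without TCM replicate 3 (0.57, adjusted p = 0.0552, edgeR). Stefin genes are near-identical copies, so their separate values are uncertain.

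Of 6 tested receptors and partners of granule proteins, P2rx7 and Slc22a17 rose, Fpr2 fell and 3 did not pass (median log2 change 0.22), beside 28.8% higher and 30.0% lower over all genes, so the counts do not set this list apart. P2rx7, an ATP-gated channel that cathelicidin peptides can engage, changed by 1.49 ± 0.15 and Slc22a17, an uptake receptor for lipocalin-2, by 1.67 ± 0.36 (SE; edgeR adjusted p = 5.32e-05 and 0.00356). Fpr2, a formyl peptide receptor that binds cathelicidin peptides, changed by -0.81 ± 0.27 (adjusted p = 0.0263, edgeR), and its call was lost without Vehicle replicate 2 or 3 or TCM replicate 2 (-0.68, -0.73 and -0.87, adjusted p 0.0677 to 0.0874). Macrophages also make Mmp9, Lcn2 and Lyz2. Of 9 monocyte and macrophage markers 6 fell (Csf1r, Ccr2, Mertk, C1qa, C1qb and C1qc), Cd14 rose and Adgre1 and Cd68 did not pass. The median log2 change of the 9 was -1.56, beside -0.018 for all genes tested. Their summed level was 158 to 205 CPM in Vehicle and 127 to 130 CPM in TCM, and their part in the granule gene changes was not tested. Without replicate 1 of both groups, Adgre1 and Cd68 were called lower (-0.27 and -0.22, adjusted p = 0.0432 and 0.0332, edgeR). With library totals the rise of Cd14 (0.70) no longer passed (0.51, adjusted p = 0.0677, edgeR).

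**Figure D4:**
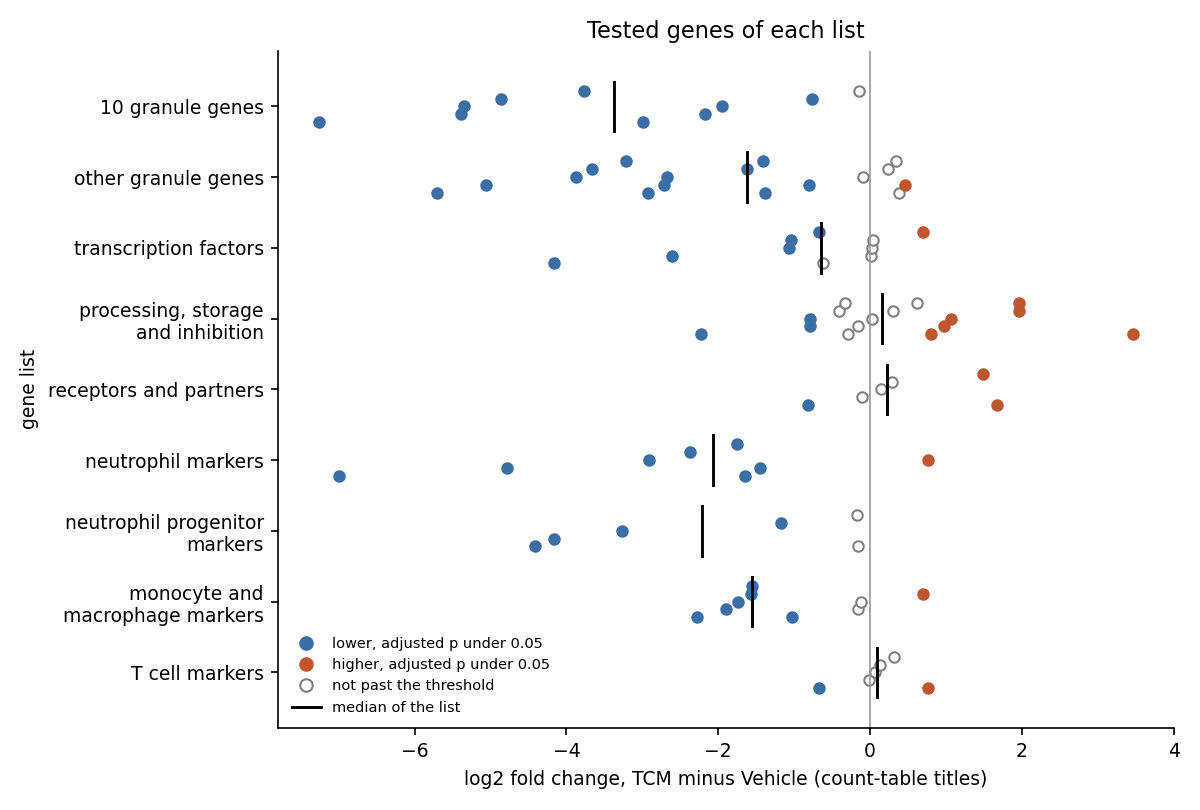
Log2 fold change, TCM minus Vehicle by the count-table titles, of each tested gene in the granule gene set and 8 further lists, one row per list. Filled points passed an adjusted p of 0.05 (blue lower, orange higher), open points did not, and black bars are list medians. The granule genes lie between -7.26 and -0.14, and the median of the processing, storage and inhibition list is 0.16, or -0.056 with library totals.

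The genes whose profile over the 6 libraries was closest to the mean of the specific granule genes were Apol7c, Pi16 and Abca13, with root mean square distances of 0.138, 0.217 and 0.241 on the centred log2 CPM scale. Abca13, a lipid transporter family gene, went from 48.7 ± 3.33 to 2.42 ± 0.211 CPM (SD, n = 3) and Apol7c from 15.8 ± 1.74 to 0.583 ± 0.0640 CPM. Closest to the azurophil mean were Hdc, the histamine-forming enzyme of basophils, mast cells and neutrophils, the transcription factor gene Nfe2 and Gm7694, an unnamed gene model, at distances of 0.154, 0.162 and 0.169. Hdc went from 33.2 ± 0.417 to 4.89 ± 0.914 CPM and Nfe2 from 24.1 ± 3.12 to 2.84 ± 0.606 CPM (SD, n = 3). These distances mostly follow the size of the group difference, and they describe likeness in these libraries alone.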

How the data were processed

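The 3 libraries titled Vehicle were compared with the 3 titled TCM. In the deposited count table the values are whole reads over exons for each gene symbol. In the deposited normalized table they are a signal that the authors scaled from counts, 1 factor for each library. The submitters' processing notes list STAR 2.7.2d, DESeq2 1.28.1 and mm10 without roles, and what counted the reads, and with which strand rule, is not given in the sources used here. Whole reads were recovered from 100% of the normalized values (tolerance 0.1 reads), and edgeR on them under that table's own titles called 3726 genes higher and 3584 lower. The 92 spike-in rows held 0 counts and were left out.

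Low counts were removed by filterByExpr, and edgeR 4.0.16 (R 4.3.3) fitted the rest by quasi-likelihood with TMM scaling, group as the sole term, p-values adjusted over 12423 genes. The standard error is the log2 change divided by the root of F. Levels between genes are CPM per kilobase of exon (GENCODE M21, GRCm38). The test was tried on simulated data. Members, lists and tests were chosen with earlier results of these data known. All members are named, and in each list the 3 genes with the smallest p. Of the listed symbols, some were found under older names in RefSeq's table, Ly6g and Trac were not analysed here, and some marker results are not reported here. Deviations of same-numbered libraries from their group means correlated at 0.60, 0.15 and 0.36 over genes (replicates 1, 2 and 3), each above 0.1, and the numbers were taken as pairs for the block. Vehicle 2 with TCM 3 (0.42) and Vehicle 3 with TCM 2 (0.27) correlated more than Vehicle 2 with TCM 2, so the numbers do not separate replicates 2 and 3. Alternatives were other scalings, no filter, DESeq2 1.42.0, limma-voom 3.58.1, a replicate block and left-out libraries.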

Additional observations from a re-analysis of the deposited data

How the results depend on the processing

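Under the titles of the normalized table each direction turned around: 0 granule genes were lower and 9 higher, with log2 changes of 5.35 (Elane), 2.99 (Mpo), 2.17 (Prtn3), 1.95 (Ctsg), 7.26 (Ltf), 4.86 (Camp), 5.39 (Ngp), 0.77 (Lcn2), 0.14 (Mmp8) and 3.76 (Mmp9). Under the 13 settings that kept the count-table titles, the 9 calls held and Mmp8 did not pass (adjusted p 0.139 to 0.893, log2 change -0.35 to -0.029). Lcn2 ran from -0.99 to -0.70 (adjusted p up to 0.0191) and Ltf from -7.47 to -7.09. With the replicate block 9 granule genes were lower and Mmp8 was at -0.14 (adjusted p = 0.369, edgeR). The block changed no call among the 10 genes, while in the further lists it added calls for Cyba, Adam8, Cd63, Cebpa, Timp2, Cstb, Lrp1 and Cd3g. Scaled by library totals alone, the median log2 change of all genes moved by -0.21, and 2364 genes were higher and 3965 lower, so that 37.4% of calls were higher against 49.0% with TMM. The cause was not tested. Depth limits Elane in TCM most, with 8 counts over 3 libraries.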

Other observations

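Markers of other splenic cells also differed between the libraries by the count-table titles, where 30.0% of all genes were called lower and 28.8% higher. All 5 basophil and mast cell markers fell, among them Mcpt8 (-1.67 ± 0.17 on the log2 scale, SE), a basophil protease gene, Prss34 (-2.47 ± 0.30), likewise of basophils, and Ms4a2 (-2.25 ± 0.28), a chain of the IgE receptor, with adjusted p-values of 5.30e-05, 0.000148 and 0.000186 (edgeR). Of the B cell genes, Cd79b (-1.77 ± 0.12), a chain of the B cell receptor, and the transcription factor gene Pax5 (-0.91 ± 0.12) fell, and Ms4a1 did not pass. Of 3 tested dendritic cell markers Clec9a (353 counts over the Vehicle and 3 over the TCM libraries) and Siglech (-2.96 ± 0.44) fell and Flt3 did not pass, while Xcr1 had 3 counts in all. The heme synthesis gene Alas2 (-2.31 ± 0.28) and the globin gene Hbb-bs (-1.90 ± 0.29, listed as Beta-s) fell, and Hba-a1 had 1 count. Of 3 tested eosinophil markers Prg2 fell (-0.71 ± 0.26, adjusted p = 0.0422, edgeR), and Epx and Ccr3 did not pass. The call of Prg2 was lost without Vehicle replicate 2 or 3 or TCM replicate 1 or 3. Epx was called lower without Vehicle replicate 3 (-1.10, adjusted p = 0.0392, edgeR).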
